A study of Sus scrofa with 6 samples.

Results

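The Krüppel-like factors (KLFs) are transcription factors that bind GC-rich and CACCC-type sites through a row of C2H2 zinc fingers at their C terminus. The 10 KLF genes described here, KLF2, KLF3, KLF4, KLF5, KLF6, KLF9, KLF10, KLF11, KLF13 and KLF15, were taken by gene symbol from the 17670 genes of the deposited count table, and every symbol matched 1 row. All 10 had enough reads to be among the 12701 genes tested. The study sequenced RNA from cultured immature Sertoli cells, labelled as coming from pig testis at 80 to 90 days of gestation. A control group of 3 libraries was compared with 3 libraries from cells given AA2P (L-ascorbic acid 2-phosphate, a vitamin C derivative that keeps in culture medium) at 250 µM, after 6 h of culture. Both groups grew in minimum essential medium with fetal bovine serum, and the sources used here name neither the breed, nor the length of the treatment, nor a vehicle for the control cells. The labels do not say whether replicate libraries stem from different cultures or animals, and the p-values therefore cover only the spread among these libraries, which may be technical.

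KLF proteins fall into subfamilies by the partners bound outside the zinc fingers. KLF2, KLF4, KLF5, KLF6 and KLF7 act mainly as activators through acetyltransferases, KLF3, KLF8 and KLF12 recruit the corepressor CtBP, and KLF9, KLF10, KLF11, KLF13, KLF14 and KLF16 recruit SIN3A with histone deacetylases. In the testis KLF4 is best known, being present in Sertoli cells, inducible there by follicle-stimulating hormone and needed in mice for their timely differentiation. Many of these genes respond within hours to serum, hormones, TGF-beta or metabolic state, and KLF9, KLF10 and KLF15 follow the circadian clock in several tissues.

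Library totals ran from 18747307 to 23521291 read counts, and levels are given as CPM, counts scaled to a common library size with TMM factors. A count of 0 allows up to 3 counts, or 0.123 to 0.165 CPM, for counting error only. AA2P library 3 lay nearer to the controls than AA2P libraries 1 and 2, with a mean correlation of log2 CPM across genes of 0.970 to the controls against 0.959 and 0.961. Among the defining Sertoli genes, AMH, the anti-Müllerian hormone, stood at 36.4 ± 1.52 CPM in controls (SD, n = 3) and 34.5 ± 2.35 with AA2P, and SOX9, the transcription factor that sets Sertoli fate, at 11.6 ± 0.648 and 2.22 ± 0.459. Of 10 Sertoli markers with a row, INHA, DHH, KITLG, NR5A1 and AMHR2 had too few reads to be tested, and 4 of the markers with a row averaged under 3 counts per library. Of the 5 tested, 4 were called lower, where 26.1% of all genes were, and AMH was not called. Their median log2 fold change was -0.79. WT1 fell from 40.7 ± 4.21 to 23.8 ± 4.20 CPM and INHBB from 5.33 ± 0.130 to 3.05 ± 0.570 CPM. The summed level of the 10 Sertoli markers was 4127 to 4437 CPM in controls and 1134 to 1667 with AA2P, nearly all of it from clusterin (CLU). All 5 markers of kidney or mesonephric tubule tested here, PAX2, HNF4A, LRP2, CUBN and CDH16, were called higher with AA2P. Among all genes tested, 26.0% were called higher. The sum of these 5 markers was 242 to 286 CPM in controls and 848 to 1160 CPM with AA2P. The part of these shifts in the KLF values was not tested, and in bulk RNA fewer cells of a type and less RNA per cell cannot be told apart.

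Relative mRNA levels of KLF10, KLF4 and KLF6 were lower in the AA2P libraries than in the controls. Those of KLF11, KLF2, KLF9 and KLF3 were higher. KLF5, KLF13 and KLF15 did not pass the test. With p-values from edgeR's quasi-likelihood test, Benjamini-Hochberg adjusted over the 12701 genes, 4 of the 10 members were higher, where 26.0% of all genes were, and 3 were lower, where 26.1% of all genes were. The share called in either direction was thus 7 of 10 against 52.1% of all genes. Calls of 1.5-fold or more were made for 5 members against 18.2% of all genes, and the libraries of the groups did not overlap for 8 members against 59.3% of all genes. The median log2 fold change of the members, AA2P over control, was -0.01, because rises and falls balanced, while the median of its absolute value was 0.49 against 0.23 over all genes tested.

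**Figure D1:**
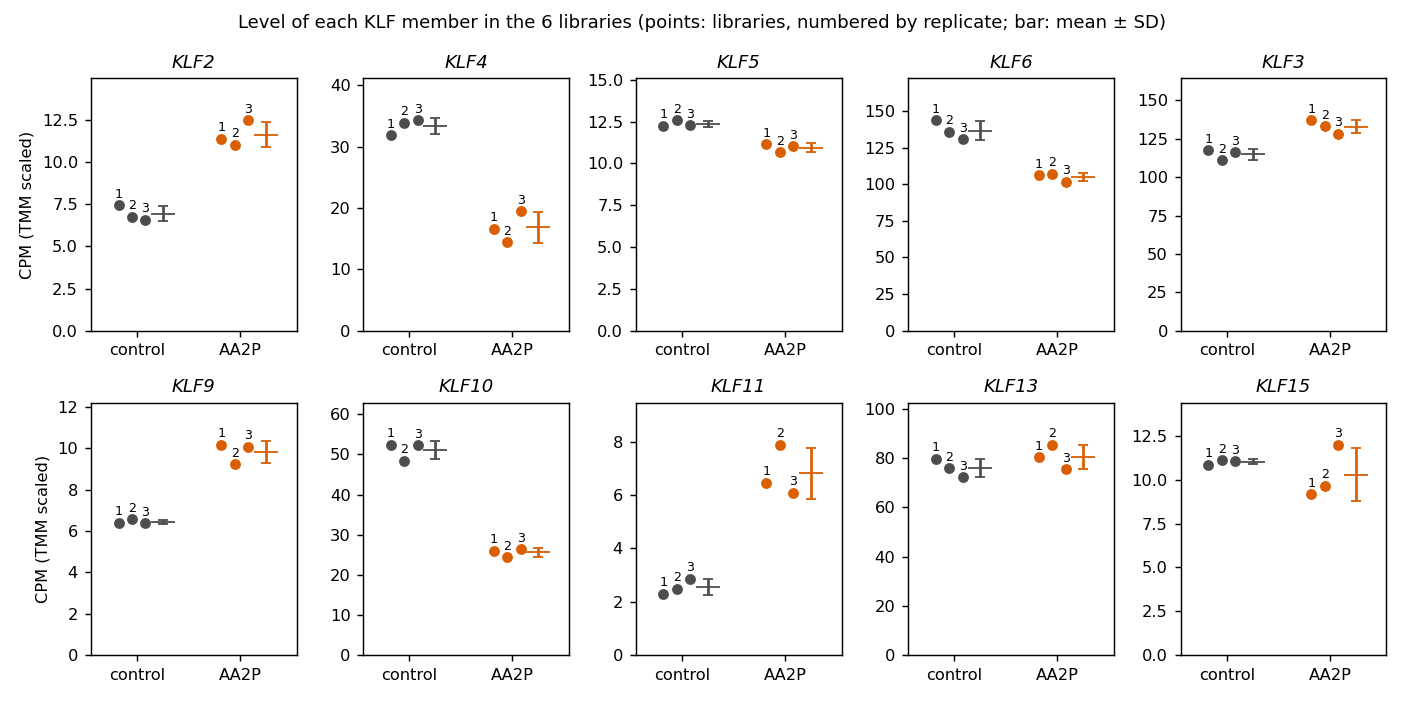
Level of each of the 10 KLF genes in CPM (vertical axis, TMM scaled, starting at 0) in the 3 control and 3 AA2P libraries. Points are libraries numbered by replicate and the bar beside them is the mean ± SD; the groups are apart in every panel except KLF13 and KLF15.

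The plot of levels by library shows the activators first. KLF4, an epithelial differentiation factor and one of the factors used to reprogram somatic cells, measured 31.9, 33.9 and 34.3 CPM in control libraries 1 to 3 and 16.6, 14.4 and 19.5 CPM in AA2P libraries 1 to 3. Every AA2P library was below every control, and AA2P library 3 was the nearest to them. The mean fell from 33.3 ± 1.29 to 16.8 ± 2.56 CPM (SD, n = 3), a 1.97-fold decrease with a log2 fold change of -0.98, a standard error of 0.09 and an adjusted p of 2.1e-07 by edgeR's quasi-likelihood test. The spread of KLF4 among AA2P libraries, a coefficient of variation of 15.2%, was wider than the 5.23% that counting alone would give, whereas in the controls it was 3.88% against 3.85%. Only 3.64% of the tested genes had a lower log2 fold change.

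KLF2, the close relative of KLF4 that keeps endothelium and T cells quiescent, went the other way. Its level was 7.44, 6.78 and 6.60 CPM in the controls and 11.4, 11.0 and 12.5 CPM with AA2P. The lowest AA2P library lay well above the highest control, and AA2P library 3 was the farthest from the controls rather than the nearest. KLF2 rose 1.68-fold, from 6.94 ± 0.440 to 11.7 ± 0.749 CPM (SD, n = 3), with a log2 fold change of 0.75, a standard error of 0.11 and an adjusted p of 2.0e-05 by edgeR's quasi-likelihood test. These levels rest on 123 to 304 reads per library, and the spread between replicates, 6.34% and 6.43%, was about that of counting, 8.41% and 6.30%.

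KLF6, a widely expressed factor induced by tissue injury, was read from 2121 to 3187 counts per library. It measured 144, 136 and 131 CPM in the controls and 106, 107 and 102 CPM with AA2P. The groups were apart, but the fall was small, 1.30-fold from 137 ± 6.54 to 105 ± 2.87 CPM (SD, n = 3), with a log2 fold change of -0.38, a standard error of 0.05 and an adjusted p of 1.3e-05 by edgeR's quasi-likelihood test. Scaled by library totals instead of TMM factors, the log2 fold change was -0.21 and the call held, at an adjusted p of 0.00284.

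KLF5, which drives proliferation in intestinal crypts and other epithelia, stood at 12.3, 12.6 and 12.3 CPM in the controls and 11.2, 10.7 and 11.0 CPM with AA2P. The AA2P libraries were all just below the controls, yet the difference did not pass edgeR's quasi-likelihood test, with an adjusted p of 0.121. The 95% confidence interval of its log2 fold change ran from -0.37 to 0.02. Replicates of KLF5 lay closer together than counting predicts, at 1.38% and 2.40% against 6.31% and 6.52%, and the test takes counting error into account beside the spread in the plot. With library totals its log2 fold change was -0.01.

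KLF3 was the only CtBP-binding member among the 10 and had the most reads with AA2P, 2688 to 3124 per library. This repressor, known from fat and red blood cell development, measured 118, 111 and 116 CPM in the controls and 137, 133 and 128 CPM with AA2P. The groups did not overlap, and the rise was 1.15-fold, from 115 ± 3.51 to 133 ± 4.32 CPM (SD, n = 3), with a log2 fold change of 0.21, a standard error of 0.05 and an adjusted p of 0.00242 by edgeR's quasi-likelihood test. In absolute size this change was near the middle of all genes, with 47.0% of them changing less. The RefSeq gene table of assembly Sscrofa11.1 lists a long non-coding RNA gene overlapping KLF3 and another overlapping KLF13. Whether the counting used strand is not given in the sources used here, so reads of those genes cannot be told apart from reads of KLF3 and KLF13.

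The SIN3A-binding members split. KLF10 and KLF11, both first described as TGF-beta-inducible early genes and close in structure, moved in opposite directions. KLF10 measured 52.4, 48.5 and 52.3 CPM in the controls and 26.0, 24.3 and 26.3 CPM with AA2P. The 3 AA2P libraries sat close together far below the controls, AA2P library 3 included. The fall was 2.00-fold, from 51.1 ± 2.23 to 25.6 ± 1.07 CPM (SD, n = 3), with a log2 fold change of -0.999, a standard error of 0.06 and an adjusted p of 2.1e-09 by edgeR's quasi-likelihood test, the smallest among the 10 members.

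KLF11, which regulates the insulin gene in beta cells and metabolic genes in liver and fat, measured 2.30, 2.48 and 2.86 CPM in the controls and 6.46, 7.88 and 6.08 CPM with AA2P. It had the fewest reads of the 10 members, 45 to 59 per control library and 129 to 159 per AA2P library. The lowest AA2P library was still far above the highest control. KLF11 rose 2.66-fold, from 2.55 ± 0.289 to 6.81 ± 0.948 CPM (SD, n = 3), with a log2 fold change of 1.41, a standard error of 0.16 and an adjusted p of 1.3e-06 by edgeR's quasi-likelihood test. The 95% confidence interval of the fold ran from 2.11 to 3.36, the widest in log2 units among the members, and 95.04% of the tested genes changed less in absolute size.

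KLF9, a hormone-responsive factor induced by glucocorticoids and thyroid hormone, measured 6.40, 6.56 and 6.36 CPM in the controls and 10.2, 9.22 and 10.1 CPM with AA2P. No library of one group came near the other. The rise was 1.53-fold, from 6.44 ± 0.105 to 9.82 ± 0.521 CPM (SD, n = 3), with a log2 fold change of 0.61, a standard error of 0.11 and an adjusted p of 0.000165 by edgeR's quasi-likelihood test. KLF13, its close relative and a regulator of the chemokine CCL5 in T cells, measured 79.8, 76.1 and 72.4 CPM in the controls and 80.4, 85.4 and 75.5 CPM with AA2P. Those ranges overlapped, and KLF13 was not called at an adjusted p of 0.287 by edgeR's quasi-likelihood test, its log2 fold change being 0.08 with a 95% confidence interval from -0.05 to 0.21. The scaling decided that call, since with library totals the log2 fold change of KLF13 was 0.25 with an adjusted p of 0.00225.

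KLF15 stands outside these subfamilies. It is a glucocorticoid-induced factor of amino acid and glucose metabolism with high expression in kidney, liver and muscle. Its level was 10.9, 11.1 and 11.1 CPM in the controls and 9.16, 9.66 and 12.0 CPM with AA2P. The controls were almost equal, AA2P libraries 1 and 2 lay below them and AA2P library 3 above. The log2 fold change of -0.09, with a 95% confidence interval from -0.33 to 0.14, was not called at an adjusted p of 0.513 by edgeR's quasi-likelihood test. Without AA2P library 3 it was -0.22 with an adjusted p of 0.0976, and with library totals it was 0.08, so neither size nor sign was settled by these libraries.

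**Figure D2:**
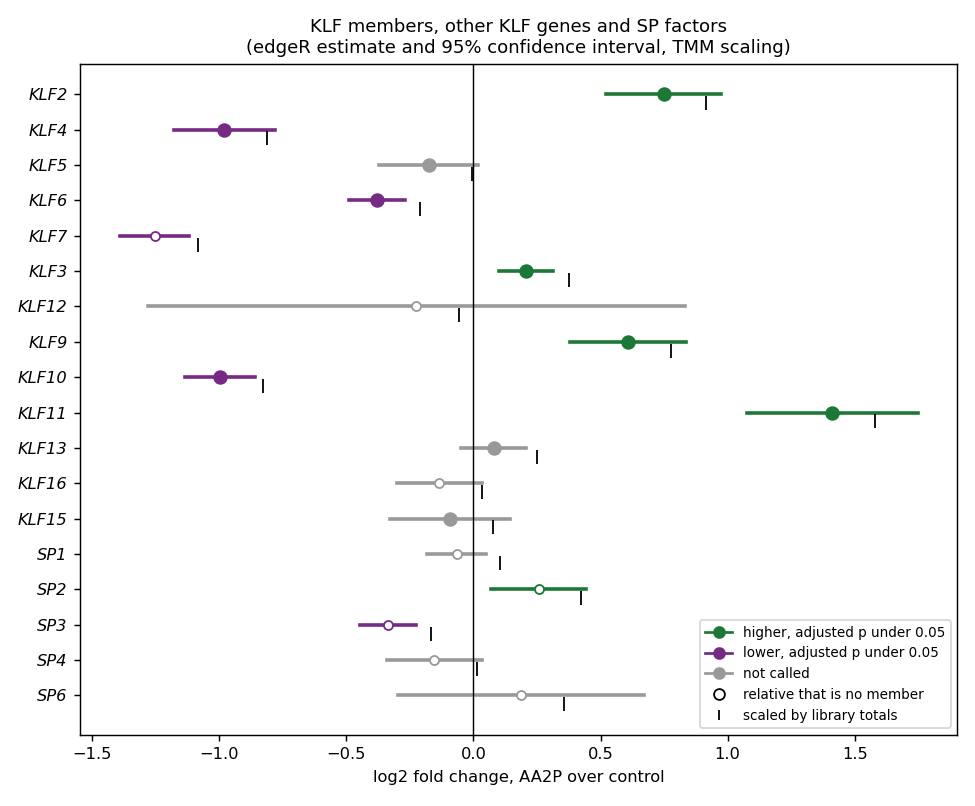
Log2 fold change, AA2P over control (horizontal axis), with the 95% confidence interval for the 10 KLF members (filled points) and for the tested other KLF genes and SP factors (open points); vertical ticks give the value with library totals. KLF11, KLF2, KLF9 and KLF3 lie to the right, KLF10, KLF4, KLF6 and the non-member KLF7 to the left, and the ticks are shifted to the right throughout.

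The shift of the ticks in the plot of fold changes is the effect of scaling. Scaling by library totals raised the median log2 fold change over the tested genes by 0.17. All 7 calls among the members held there in the same direction, and KLF13 was added as higher. They also held, in the same direction, with DESeq2 size factors, both other count filters, the DESeq2 Wald test, limma-voom, a block for the replicate number, an adjusted p of 0.01 and each library left out. Of the 7 called members, AA2P library 3 was the AA2P library nearest to the control mean for 4, KLF3, KLF4, KLF10 and KLF11, and AA2P library 2 for the other 3. Without AA2P library 3 the log2 fold change was -1.10 for KLF4, 1.496 for KLF11 and 0.70 for KLF2.

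Ratios between the reads of 2 members in the same library do not depend on how libraries are scaled, so 4 pairs of related members were compared that way. They are ratios of reads, which also depend on transcript length, and only their change between groups is read here. The log2 ratio of KLF11 over KLF10 reads was -4.50, -4.27 and -4.18 in the controls and -2.00, -1.62 and -2.11 with AA2P. KLF11 thus went from 0.0502 to 0.266 reads for each KLF10 read, a 5.29-fold change of balance between these paralogs. The log2 ratio of KLF4 over KLF2 was 2.10, 2.32 and 2.37 in the controls and 0.54, 0.38 and 0.64 with AA2P, a fall from 4.80 to 1.43 KLF4 reads for each KLF2 read.

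KLF5 over KLF4 was -1.38, -1.43 and -1.48 on the log2 scale in the controls and -0.57, -0.43 and -0.82 with AA2P, a 1.77-fold rise of KLF5 relative to KLF4. For KLF9 over KLF13 the values were -3.64, -3.53 and -3.50 in the controls and -2.98, -3.21 and -2.90 with AA2P, a 1.44-fold rise. In each of the 4 pairs the groups did not overlap. These ratios restate the members' own changes from the same reads and are no separate evidence. How often other gene pairs separate was not tested, and 59.3% of single genes did. The exact permutation test, two-sided, gave p = 0.1 for each pair and 0.1 after adjustment over the 4, which is the smallest p that 3 libraries against 3 can give. The plot of ratios shows the groups apart in every panel, with AA2P library 3 the nearest to the controls for each pair except KLF9 over KLF13.

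**Figure D3:**
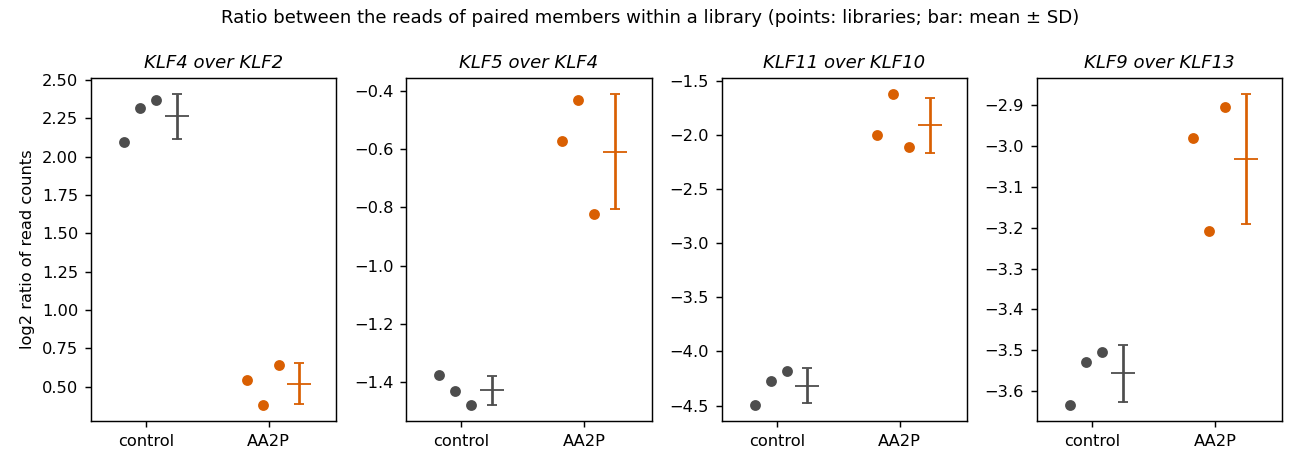
Log2 ratio of the read counts of 2 KLF members in the same library (vertical axis, each panel with its own range that does not start at 0) for 4 pairs. Points are the 3 control and 3 AA2P libraries and bars the mean ± SD; the groups are apart in each panel, KLF4 over KLF2 falling and the other ratios rising with AA2P.

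The 10 members together took 464, 445 and 445 CPM in the controls and 414, 413 and 403 CPM with AA2P. The sum over all 16 KLF genes with a row was 656, 643 and 646 CPM in the controls and 504, 503 and 506 CPM with AA2P. Most of that wider drop was KLF7, an activator known from neuron development that is not among the 10. KLF7 measured 167, 175 and 178 CPM in the controls and 69.6, 67.0 and 80.6 CPM with AA2P, and its 2.39-fold fall, a log2 fold change of -1.25 with a standard error of 0.06 and an adjusted p of 1.3e-10 by edgeR's quasi-likelihood test, was larger than that of any member. KLF16 stood at 23.3 ± 0.611 and 21.2 ± 1.53 CPM (SD, n = 3) and was not called, and KLF12, at 4 to 18 reads per library, was not called either. KLF8, KLF14 and KLF17 had at most 8 reads in any library and were not tested.

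SP factors share the zinc fingers and many sites of the KLFs. Of 5 tested SP genes, SP3 fell 1.26-fold from 104 ± 2.02 to 82.5 ± 3.67 CPM (SD, n = 3) and SP2 rose 1.19-fold from 13.7 ± 0.368 to 16.3 ± 1.01 CPM, with adjusted p-values of 4.8e-05 and 0.0223 by edgeR's quasi-likelihood test. SP1, the most general activator of GC boxes, was at 84.0 ± 2.25 and 80.3 ± 3.94 CPM, and SP1, SP4 and SP6 were not called. Thus 1 of the 5 was higher and 1 lower, where 26.0% and 26.1% of all genes were. The SP2 call was lost without control library 2, control library 3 or AA2P library 3, with adjusted p-values of 0.0821, 0.0552 and 0.0744.

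Among the genes for proteins that KLFs recruit, KAT2B alone was called with a change of at least 1.5-fold. Of 10 tested cofactor genes 3 were higher and 3 lower with AA2P, shares close to the 26.0% and 26.1% over all genes, with a median log2 fold change of -0.02. The count of higher genes was 1 without control library 2 or 3, and that of lower genes was 1 without control library 3. KAT2B, an acetyltransferase that binds KLF13, measured 7.66, 7.66 and 7.62 CPM in the controls and 17.9, 17.0 and 10.6 CPM with AA2P. AA2P library 3 again lay nearest to the controls, and the 1.96-fold rise had an adjusted p of 7.3e-05 by edgeR's quasi-likelihood test. The corepressors SIN3B, HDAC2 and SIN3A fell 1.19-fold, 1.14-fold and 1.11-fold, calls that were lost with library totals. Under that scaling 5 cofactor genes were higher and 0 lower, where 5727 and 1822 of all 12701 genes were. The SIN3A call was also lost without control library 1 or 3 or AA2P library 1 or 2 (adjusted p from 0.0624 to 0.0823), and the HDAC2 call without control library 3 (adjusted p = 0.0800). CTBP1, the partner of KLF3, was at 83.1 ± 2.76 and 83.6 ± 3.20 CPM (SD, n = 3).

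Ubiquitin ligase genes that control KLF protein levels were lower or not called. SMURF1, which targets KLF2, fell 2.02-fold from 81.2 ± 4.003 to 40.1 ± 4.28 CPM (SD, n = 3). SIAH1, which targets KLF10, fell 1.72-fold from 58.3 ± 1.34 to 33.9 ± 1.96 CPM. FBXW7, which targets KLF2 and KLF5, was called lower, 1.11-fold, a call that was lost with library totals (adjusted p = 0.859), with the DESeq2 Wald test (0.0540) and with the replicate block (0.0586). It was also lost without control library 1, 2 or 3 or AA2P library 2 (adjusted p from 0.0530 to 0.142). WWP1 and BTRC were not called, so 3 of 5 were lower and none higher, or 2 lower and 2 higher with library totals. The shares over all genes were 26.1% lower and 26.0% higher with TMM factors. With library totals 1822 of all 12701 genes were lower and 5727 higher.

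ERK5 signalling through MEF2 factors is the classical inducer of KLF2 and KLF4 transcription. Of 6 tested genes of this route, MEF2D fell 1.502-fold from 53.1 ± 1.31 to 35.3 ± 3.33 CPM (SD, n = 3) and MEF2A fell 1.29-fold from 132 ± 4.53 to 103 ± 5.36 CPM. The kinase gene MAP3K3 rose 1.25-fold. MAP3K2 was called higher, 1.11-fold, but missed the threshold with the replicate block (adjusted p = 0.0529) and without control library 1, 2 or 3 or AA2P library 3 (adjusted p from 0.0507 to 0.108). MAP2K5 and MAPK7, which encodes ERK5, were not called. Thus 2 of the 6 were higher and 2 lower, where 26.0% and 26.1% of all genes were. The median log2 fold change of the list was -0.06.

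Glucocorticoid-responsive genes, a list in which KLF9 and KLF15 would also belong, moved both ways. Of 7 tested genes 2 were higher and 4 lower, where 26.0% and 26.1% of all genes were. Their median log2 fold change was -0.34 against -0.000491 over all genes. ERRFI1, an inhibitor of EGF receptor signalling, fell 2.23-fold, the phosphatase gene DUSP1 1.41-fold and the receptor cochaperone FKBP5 1.29-fold. PER1 rose 1.54-fold from 25.2 ± 1.21 to 38.7 ± 3.79 CPM (SD, n = 3), and SGK1, chosen after its value was seen as the other gene that rose, 1.27-fold. The receptor gene NR3C1, also chosen after its value was seen, fell from 95.5 ± 2.16 to 75.5 ± 1.96 CPM.

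Clock genes changed in both directions, with 3 higher and 6 lower of 15 tested, against 26.0% and 26.1% of all genes. Their median log2 fold change was 0.01. The largest falls among these 15 were in repressors of the clock and its output, but repressors did not move as a class. The repressors PER1 and CRY2 were called higher, and others were not called. BHLHE40 fell 2.63-fold from 297 ± 18.8 to 113 ± 13.5 CPM (SD, n = 3), BHLHE41 2.42-fold, NFIL3 2.78-fold and NR1D2 1.71-fold. BHLHE40, BHLHE41 and NFIL3 also respond to stimuli other than the clock, hypoxia among them for the BHLHE genes. PER1 rose, as did CRY2, 1.71-fold, and TEF, 1.39-fold, the latter pair chosen after their values were seen. The core activators CLOCK, at 150 ± 5.36 and 151 ± 7.10 CPM, and BMAL1, at 11.6 ± 0.835 and 12.6 ± 0.387 CPM, were not called. RORA, 1.41-fold, and the CLOCK paralog NPAS2, 1.19-fold, were also called lower, and both were chosen after their values were seen. The NPAS2 call was lost with library totals, at an adjusted p of 0.01 and without control library 2. With library totals 6 clock genes were higher and 5 lower, where 5727 and 1822 of all 12701 genes were.

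Genes around TGF-beta, the signal after which KLF10 and KLF11 are named, were mostly lower. Of 11 tested genes 9 were called lower and 2 higher, where 26.1% and 26.0% of all genes were. The median log2 fold change of the list was -0.48. With library totals 6 of the list were lower and 2 higher, where 1822 and 5727 of all 12701 genes were. The receptor genes TGFBR1 and TGFBR2 fell 1.66-fold and 1.40-fold, the ligand gene TGFB1 1.63-fold and the feedback inhibitor SMAD7 1.62-fold. The genes called higher were SMAD3, 1.39-fold, and TGFB2, 1.31-fold, chosen after their values were seen. TGFB2 missed the threshold with the DESeq2 Wald test (adjusted p = 0.0800) and without control library 1, 2 or 3 or AA2P library 1 (adjusted p from 0.0636 to 0.146).

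**Figure D4:**
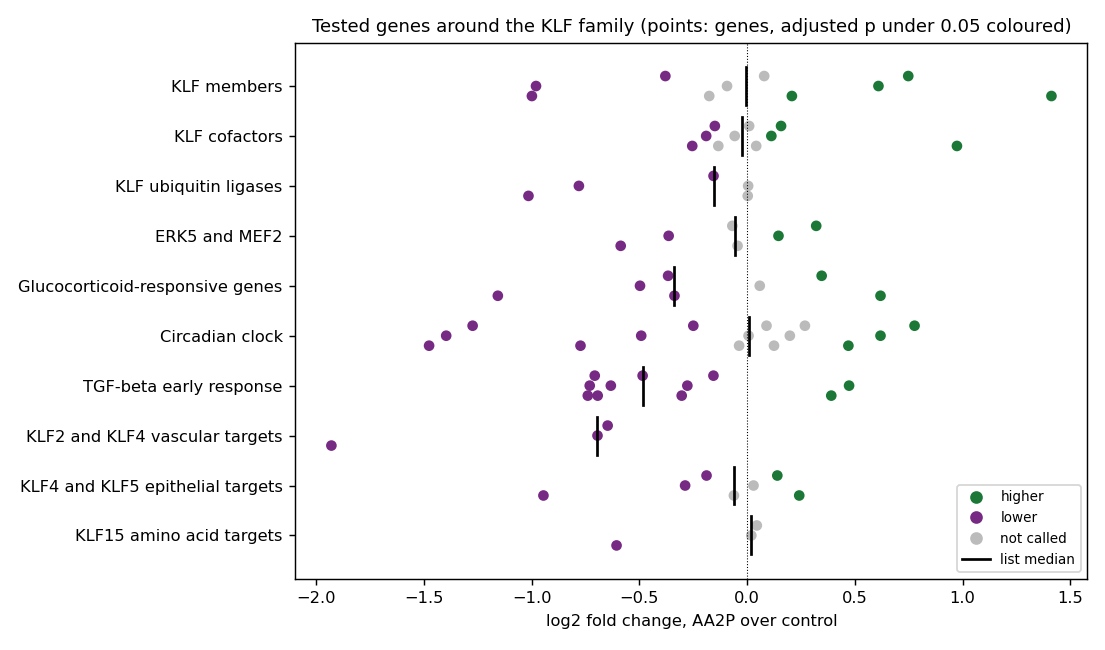
Log2 fold change, AA2P over control (horizontal axis), of each tested gene in the KLF group and in 9 lists of related genes (rows); points are genes, coloured where the adjusted p was under 0.05, and black bars are list medians. The TGF-beta and vascular target lists lie mostly to the left, with medians of -0.48 and -0.69, while the KLF members spread to both sides.

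Genes known elsewhere as KLF targets were read from 3 lists shown in the plot of related genes. All 3 tested vascular targets were called lower, where 26.1% of all genes were, with a median log2 fold change of -0.69. Tissue factor (F3) fell 3.81-fold, endothelin EDN1 1.62-fold and thrombospondin THBS1 1.57-fold. Of the 7 genes in this list 4 had a row, and NOS3, at 0 to 3 reads per library, was not tested. The list holds targets of KLF2 and of KLF4, and here KLF2 rose while KLF4 fell. The part of either factor in these falls was not tested. F3 measured 204, 202 and 203 CPM in the controls and 50.4, 53.2 and 56.0 CPM with AA2P, so the groups were far apart. Of 8 endothelial markers 5 had a row, and their summed level was only 5.36 to 6.996 CPM in controls and 11.0 to 13.2 CPM with AA2P. PECAM1 made most of that rise, from 2.26 ± 0.385 to 6.97 ± 0.875 CPM (SD, n = 3), while TEK and EMCN averaged under 3 counts. The part of endothelial RNA in the KLF2 value was not tested.

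Among epithelial and muscle targets of KLF4 and KLF5, 2 were higher and 3 lower of 7 tested, against 26.0% and 26.1% of all genes. Their median log2 fold change was -0.06. The growth factor gene PDGFA fell 1.93-fold from 47.0 ± 2.92 to 24.3 ± 2.43 CPM (SD, n = 3), TAGLN 1.22-fold and cyclin D1 (CCND1) 1.14-fold, and cyclin B1 (CCNB1) rose 1.18-fold. The TAGLN and CCND1 calls were lost with library totals, and the CCND1 call also without control library 1, at an adjusted p of 0.0531. The other gene called higher was CDH1, chosen after its value was seen, which missed the threshold with no count filter, with the DESeq2 Wald test, with the replicate block and without control library 1, 2 or 3 or AA2P library 1 or 2 (adjusted p from 0.0530 to 0.148). CDKN1A, the cell cycle inhibitor that KLF4 activates, was at 265 ± 4.94 and 271 ± 3.34 CPM, an adjusted p of 0.612 by edgeR's quasi-likelihood test. Of 3 tested KLF15 targets in amino acid metabolism, the alanine transaminase gene GPT2 fell 1.52-fold and BCAT2 and ALDH6A1 were not called. Thus 1 of the 3 was lower, where 26.1% of all genes were.

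Markers of blood, Leydig, stromal, smooth muscle and germ cells were read as well, since KLF2 and KLF13, for example, are known from T cells. The 5 blood cell markers with a row summed to 28.8 to 32.6 CPM in controls and 25.7 to 28.7 CPM with AA2P, most of it CD14, which was at 28.5 ± 1.73 and 20.5 ± 2.00 CPM, while CSF1R and CD163 averaged under 3 counts. CD3E rose from 2.08 ± 0.577 to 6.52 ± 0.506 CPM (SD, n = 3). The Leydig list summed to 5.58 to 5.89 and 6.46 to 7.53 CPM, nearly all of it STAR, and the stromal rows PDGFRA and PDGFRB to at most 0.616 CPM. The smooth muscle rows summed to 413 to 419 and 293 to 344.5 CPM, mostly TAGLN, with MYH11 under 3 counts on average. Within that list DES fell 4.64-fold, from 39.1 ± 1.92 to 8.35 ± 1.83 CPM. CNN1 rose 1.96-fold, from 0.595 ± 0.139 to 1.18 ± 0.167 CPM, a call lost with the DESeq2 Wald test and without control library 1. The germ cell gene DDX4 did not exceed 0.287 CPM. The part of these cell types in the KLF values was not tested.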

How the data were processed

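The authors deposited raw whole-number read counts per gene for 6 libraries, with no normalization. Per the submitters' processing notes, bcl2fastq and HISAT2 2.0.5 were used; the counter, its use of strand, the gene annotation and the build are not given in the sources used here, so no coordinates or sequences are printed. A table of gene names gave symbols for 13141 of 17670 genes.

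Counts were tested in R 4.3.3 with edgeR 4.0.16 (quasi-likelihood F test, TMM factors, filterByExpr, group-only model, Benjamini-Hochberg over 12701 genes, threshold 0.05), after a check of the procedure on simulated counts. In that check 14 of 197 calls were false (7.11%), and 37 of 50 genes with a log2 change of 0.5 were recovered. Only 200 genes were changed there, against 6615 called in the data, so it does not cover so broad a shift. Standard errors are the size of the log2 fold change divided by the root of F, and CPM is TMM scaled. Ratios within a library used a pseudocount of 0.5 and an exact permutation test in scipy 1.17.1. Alternatives were other scalings, count filters, DESeq2 1.42.0, limma-voom (limma 3.58.1), a replicate block, each library left out, an adjusted p of 0.01 and, for ratios, a pseudocount of 2. No 2 replicates of a group agreed within sampling noise (chi-square per degree of freedom 2.67 to 12.1). No library was left out.

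Text names all members, any KLF or SP relative, up to 4 called genes per other list by smallest p, and markers, except where marked as chosen later. CLOCK, BMAL1, CTBP1, EP300, CDKN1A, WWP1, BTRC, MAP2K5, MAPK7, NOS3, BCAT2 and ALDH6A1 were also chosen after their values were seen. The members and lists were chosen with earlier results of these data known. Genes of the lists without a row were not analysed here, and some other list genes are not reported here.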

Additional observations from a re-analysis of the deposited data

How the results depend on the processing

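The 7 calls among the 10 KLF members kept their direction and passed the threshold under all 14 alternatives. With library totals, 5727 genes were called higher and 1822 lower, against 3302 and 3313 with TMM factors, KLF13 was called at a log2 fold change of 0.25, and KLF15, not called, turned from -0.09 to 0.0754. Relatives that were not called also turned with library totals, KLF16 to 0.0351, SP1 to 0.10 and SP4 to 0.0151, and KLF12, from few reads, lay between -0.52 and 0.50 in the leave-one-out fits, turning positive at 0.50 without control replicate 1 and at 0.14 without AA2P replicate 3. Same-numbered libraries of the groups did not deviate together (correlations of -0.04, -0.02 and -0.06). With the replicate block the member counts stayed at 4 higher and 3 lower, the counts over all genes were 3094 and 3110, and the members' log2 fold changes ran from -0.999 (KLF10) to 1.40 (KLF11). Among called genes of the other lists, EP300, FBXW7, MAP3K2 and CDH1 missed the threshold with that block (adjusted p of 0.0989, 0.0586, 0.0529 and 0.0674 by edgeR's quasi-likelihood test). The 4 ratios kept their direction with a pseudocount of 2, in each leave-one-out and in the replicate block, where the smallest possible p is 0.25. KLF11, with 45 to 59 control reads, is limited most by depth.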
